A study of Mus musculus with 17 samples.

Results

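The 9 genes described here encode inhibitors that cells switch on to restrain cytokine, EGF receptor and MAP kinase signalling: the suppressor-of-cytokine-signalling genes Socs2, Socs3 and Cish, the dual-specificity phosphatase genes Dusp1, Dusp4 and Dusp6, the Sprouty genes Spry1 and Spry2, and the EGF receptor inhibitor gene Errfi1. They were chosen by symbol and function, with earlier results of these data known. Each was represented by its brightest probe among the probes that the array's annotation maps to that symbol. Of the 9 genes 8 had a probe, with 14 probes in all, and 7 entered the test among 14737 genes. Spry1 was not listed in the annotation used here. Spry2 had 1 probe, which lay below the array median of 8.20 on each of the 17 arrays, at 7.86 to 8.04 (log2 level), and did not enter the test. These are the 7 measured genes in what follows.

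Expression was measured in uterine tissue of mice with (WT) and without (KO) an intact Egr1 gene. Egr1 encodes a zinc-finger transcription factor that is itself an immediate-early gene. Uteri were sampled at 0 h and at 3 later times after estradiol (E2), and their total RNA was measured on bead arrays of the Illumina MouseWG-6 v2 design. The 8 groups were WT at 0 h (n = 2), 3 h (n = 3), 6 h (n = 2) and 24 h (n = 2), and KO at 0, 3, 6 and 24 h (n = 2 each), so 9 arrays were WT and 8 were KO. The labels used here name no strain, age, Egr1 allele, E2 dose, ovariectomy or vehicle. The labels do not state whether the arrays of a group were separate animals, so each p-value reflects the spread of these samples alone, and that spread may be technical.

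Signalling inhibitors of this kind act as negative feedback. Cytokine receptors activate JAK kinases and STAT factors, STAT factors turn on SOCS genes, and the SOCS proteins then bind the receptor or the kinase and shut the signal down. Growth factor receptors act through RAS and the kinases RAF, MEK and ERK, and ERK activity in turn raises the transcription of Dusp genes, whose products remove phosphate from MAP kinases, and of Sprouty genes, whose products act between receptor and RAS. In the uterus estradiol is known to raise growth factors, among them those that act on the EGF receptor, and the cytokine LIF acts there through STAT3.

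Arrays of a group correlated at 0.990 to 0.997 over 45281 probes, and arrays of different groups at 0.942 to 0.994. The Egr1 probe was not called lower in KO at any time, and was called higher in KO at 0 h (limma, adjusted p = 0.00302) and 24 h (0.000147). Its log2 level averaged 13.55 in KO against 12.37 in WT at 0 h, 14.64 against 14.79 at 3 h, where the arrays overlapped, 14.65 against 13.91 at 6 h and 13.39 against 11.74 at 24 h. The position of this probe in the disrupted gene is unknown, so the genotype labels stand unchecked by it. Most markers of the uterine tissue lay above the array median on all 17 arrays, with 10 of 11 epithelial, 7 of 8 smooth muscle and 8 of 8 stromal fibroblast markers. The second KO 0 h array stood apart in leukocyte markers: its macrophage list (9 genes) lay 1.12 above the mean of all arrays against 0.21 in the first, and its granulocyte list (7 genes) 1.03 against 0.01, on the log2 scale. Over the 7 measured genes the KO 0 h arrays differed by 0.01 to 0.20. The part of the leukocyte lists in the values of these genes was not tested. In whole tissue, fewer cells of a type and less RNA per cell cannot be told apart.

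Promoter sequences are shown for the genes whose start regions hold letters recognised by the factors of these pathways. RefSeq (GRCm38.p6) held 8 entries for 7 of the 9 genes, each with 250 bases before and 50 bases after an annotated start. Of 32851 such promoters, 8.30% held the STAT motif TTCNNNGAA at least once and 0.457% held it at least 2 times. Cish held it 2 times, from base 1 to 9 and from base 12 to 20 after its start, and Socs3 held it once, at positions -154 to -146 relative to its start. The lines below run 5′ to 3′ with the STAT motif in capitals, from chr9:107296589-107296688 on the plus strand and chr11:117969417-117969556 on the minus strand.
Cish: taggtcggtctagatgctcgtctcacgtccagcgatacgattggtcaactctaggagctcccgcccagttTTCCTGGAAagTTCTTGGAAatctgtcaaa
Socs3: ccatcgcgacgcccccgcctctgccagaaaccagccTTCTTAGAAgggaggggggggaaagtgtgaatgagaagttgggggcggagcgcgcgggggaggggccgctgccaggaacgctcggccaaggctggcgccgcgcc

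The cAMP response element TGACGTCA stood in 1.79% of promoters and its inner letters GACGTC, which any full element contains, in 4.40%. Dusp1 held the inner letters 2 times, 1 of them inside a full element at positions -143 to -136 relative to the start, and the second annotated start of Errfi1 had a full element at positions -51 to -44. In the lines below the capitals mark GACGTC in Dusp1 (chr17:26508563-26508702, minus strand) and TGACGTCA in Errfi1 (chr4:150854960-150855069, plus strand).
Dusp1: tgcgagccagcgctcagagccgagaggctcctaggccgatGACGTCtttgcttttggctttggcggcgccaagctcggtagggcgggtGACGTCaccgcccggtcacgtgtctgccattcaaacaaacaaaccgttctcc
Errfi1: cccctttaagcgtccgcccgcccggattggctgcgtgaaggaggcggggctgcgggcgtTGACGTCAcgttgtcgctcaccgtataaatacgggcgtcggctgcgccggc

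An estrogen response element, which is GGTCA and TGACC with NNN between them (0.0700% of promoters), and the letters TGANTCA of AP-1 (7.81%), GCGTGGGCG of EGR1 (0.612%) and the SRF motif known as the CArG box (1.63%) were not in the windows of these genes. The looser EGR1 letters GCGNGGGCG (5.55% of promoters) stood once in the Socs3 window, on the other strand. All motifs were searched on both strands. A match is a description of the letters only.

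In WT uteri most of the measured inhibitors rose at 3 h. Of the 7 measured genes 6 rose and 0 fell in the limma test (adjusted p under 0.05), where 46.7% of all genes tested passed it, 22.2% higher and 24.5% lower. Their median log2 change was 1.09, against -0.01 over all genes. The genes, and the lists of related genes further on, were chosen with earlier results of these data known. The shares of all genes therefore give a scale and are not a test of the set. In KO uteri 6 rose at 3 h and 1 fell, with 40.4% of all genes called, 19.0% higher and 21.4% lower, and the median was 1.12. The 6 genes that rose were the same in both genotypes, where 16.1% of all genes rose in both and 17.9% fell in both. At 6 h 4 rose and 2 fell in WT (44.0% of all genes called, 21.9% higher and 22.1% lower). In KO 4 rose and 1 fell at 6 h (44.9%, 21.8% and 23.0%). At 24 h 1 was higher and 3 were lower than at 0 h in WT (37.9% called, 18.9% higher and 19.0% lower), and 1 was higher and 4 were lower in KO (45.7%, 22.5% and 23.1%). In both genotypes alike, 3 of the 7 rose at 6 h (Socs3, Socs2 and Errfi1; 17.9% of all genes) and 1 fell (Dusp4; 18.2%), and at 24 h 1 was higher (Socs2; 15.1%) and 3 were lower (Dusp1, Dusp4 and Errfi1; 15.3%). The median at 24 h was 0.09 in WT and -0.33 in KO. The changes at 3, 6 and 24 h within a genotype share their 0 h arrays and are not independent of one another.

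**Figure D1:**
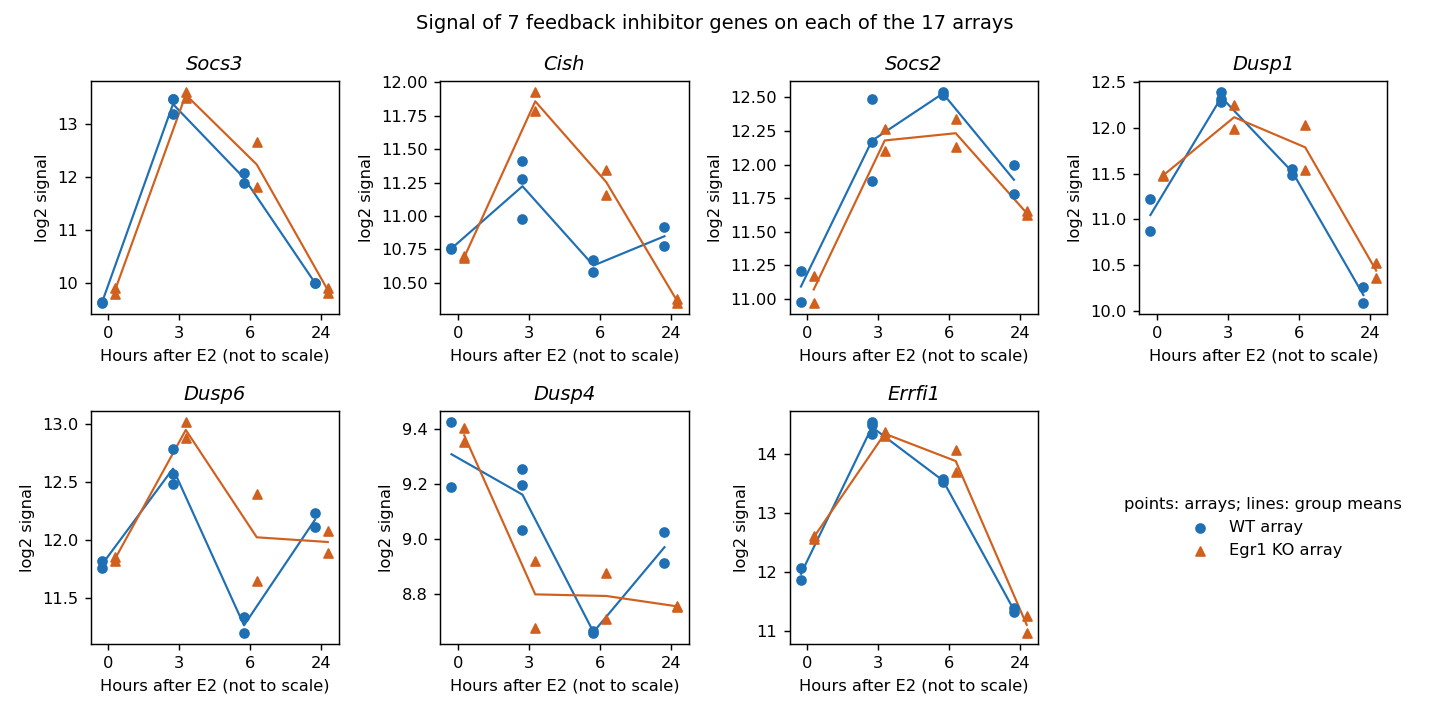
Deposited log2 level (vertical axes, 1 panel per gene) of the 7 measured inhibitor genes on each of the 17 arrays, by hours after E2, with points for arrays and lines for the group means of WT and KO. Socs3 climbs from 9.63 to 9.92 at 0 h to 13.19 to 13.61 at 3 h in both genotypes. The KO and WT arrays of Cish do not overlap at any time, with the smallest difference at 0 h. Several other genes also separate by genotype at single times.

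Socs3, whose product blocks JAK kinases at receptors of the gp130 family, had the largest change from 0 h. Its log2 levels were 9.65 and 9.63 in WT at 0 h, 13.46, 13.46 and 13.19 at 3 h, 12.09 and 11.88 at 6 h, and 10.01 and 10.00 at 24 h. In KO they were 9.92 and 9.79, then 13.61 and 13.49, then 11.82 and 12.66, and 9.92 and 9.82 at 24 h. Every array at 3 h and 6 h lay above every array at 0 h in both genotypes, and the 24 h arrays were back near the 0 h level.
The rise at 3 h was 3.74 ± 0.17 (SE) in WT and 3.69 ± 0.19 in KO on the log2 scale, or 13.3-fold and 12.9-fold (limma, adjusted p = 2.28e-09 and 1.44e-08). At 6 h it was 2.34 ± 0.19 and 2.38 ± 0.19. The fall from 3 to 6 h was called in both genotypes (-1.39 and -1.31), and so was that from 6 to 24 h (-1.97 and -2.36). At 24 h neither genotype passed the test against 0 h (0.37 in WT, adjusted p = 0.148, and 0.02 in KO, 0.965). The KO change minus the WT change was -0.04 at 3 h, with a 95% interval from -0.59 to 0.50. At 6 h the second KO array lay 0.84 above the first, where the 95th percentile over all genes was 0.38.

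Cish, the STAT5-induced member of the family that competes with STAT5 at the receptor, was the gene with the most genotype differences. Its WT log2 levels were 10.75 and 10.76 at 0 h, 11.28, 11.41 and 10.98 at 3 h, 10.67 and 10.59 at 6 h, and 10.92 and 10.78 at 24 h. The KO levels were 10.70 and 10.69, then 11.78 and 11.93, then 11.16 and 11.35, and 10.38 and 10.35. At 3 and 6 h both KO arrays lay above every WT array, and at 0 and 24 h both lay below.
In WT the rise at 3 h was small, 0.46 ± 0.10 (limma, adjusted p = 0.00164), and the 6 h and 24 h values did not pass the test (-0.13 and 0.09). In KO the gene rose by 1.16 ± 0.11 at 3 h (2.24-fold, adjusted p = 2.15e-06) and 0.56 ± 0.11 at 6 h, and fell by 0.33 at 24 h (0.0263). The fall at 24 h in KO did not pass the test without any 1 of the 4 arrays compared (-0.34 to -0.31, adjusted p = 0.0775 to 0.108). KO was higher than WT by 0.63 ± 0.10 at 3 h (adjusted p = 0.00427) and by 0.62 ± 0.11 at 6 h (0.0259), and lower by 0.48 at 24 h (-0.48 ± 0.11, 0.0164), while at 0 h the difference was -0.07 (0.833).

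The test of the difference itself, the KO change minus the WT change, gave 0.70 ± 0.15 for Cish at 3 h (limma, adjusted p = 0.0431), 0.69 ± 0.16 at 6 h (0.0874) and -0.42 ± 0.16 at 24 h (0.128). Over the 3 times jointly a moderated F-test gave an adjusted p of 0.00229, where 6.83% of all genes passed. Single arrays mattered. The KO against WT difference at 3 h lost its call without the second KO 3 h array (0.56, 0.0537) and kept it without any of the other 4. At 6 h it kept the call only without the first KO 6 h array and lost it without each of the other 3 (adjusted p up to 0.228), and at 24 h it lost it without any 1 of the 4 arrays compared (-0.56 to -0.41). The difference at 3 h lost its call as an interaction without either KO 0 h array, the second KO 3 h array or WT array 1 of 0 h or 3 h (0.63 to 0.73, adjusted p up to 0.154) and kept it without any of the other 4.

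**Figure D2:**
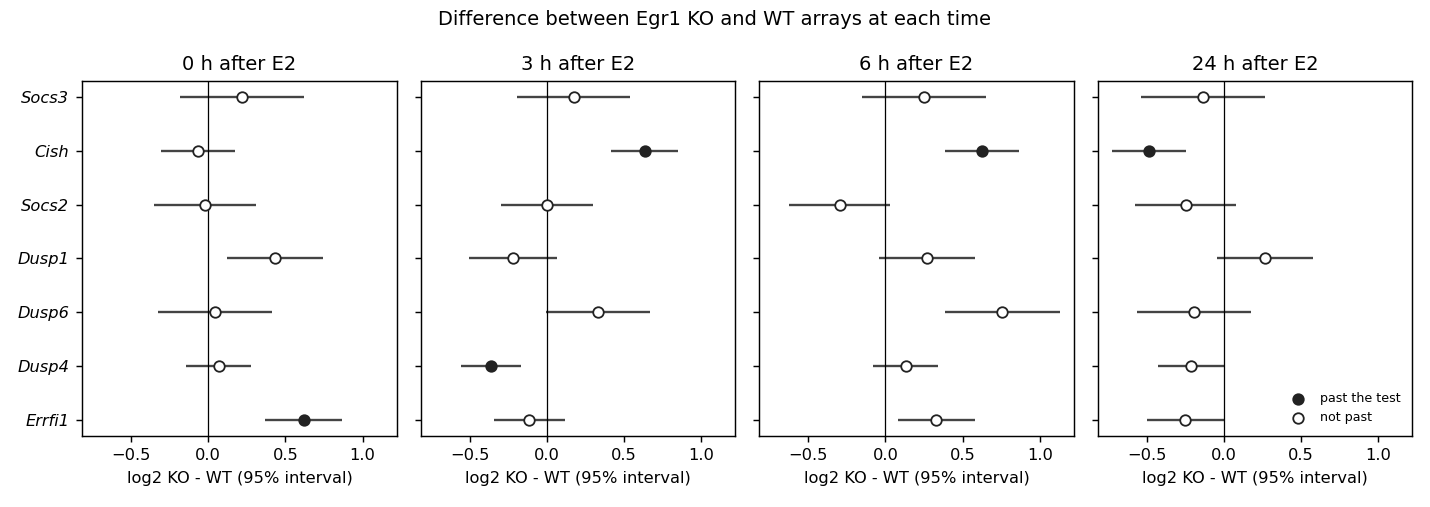
KO minus WT difference in log2 level (horizontal axis) of the 7 measured genes at 0, 3, 6 and 24 h, with 95% intervals from limma. Cish lies at 0.63 and 0.62 at 3 and 6 h and at -0.48 at 24 h, and Errfi1 lies at 0.62 at 0 h.

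Socs2, best known for restraining growth hormone signalling, had its highest mean at 6 h in both genotypes and was still higher at 24 h than at 0 h. Its WT levels were 11.21 and 10.98 at 0 h, 12.17, 11.88 and 12.49 at 3 h, 12.54 and 12.52 at 6 h, and 12.00 and 11.78 at 24 h. KO levels were 11.17 and 10.97, 12.26 and 12.10, 12.34 and 12.13, and 11.66 and 11.62. All arrays after E2 lay above all 0 h arrays of the same genotype.
It rose by 1.09 ± 0.14 at 3 h, 1.44 ± 0.15 at 6 h and 0.79 ± 0.15 at 24 h in WT (limma, adjusted p = 1.78e-05, 4.22e-06 and 0.000994), and by 1.11, 1.16 and 0.57 in KO. It was the gene called higher at 24 h in both genotypes. Leaving out the second KO 0 h array ended the KO call at 24 h (0.47, adjusted p = 0.0673), which was kept without any of the other 3 arrays. From 3 to 6 h its change was 0.35 in WT (0.0828) and 0.05 in KO (0.853), neither called, and from 6 to 24 h it fell in both (-0.64 and -0.60), the KO call being lost without the first KO 6 h array (-0.49, 0.0571). KO and WT differed by 0.00 ± 0.14 at 3 h (95% interval -0.30 to 0.30), -0.30 ± 0.15 at 6 h (adjusted p = 0.491) and -0.25 ± 0.15 at 24 h (0.412). A second Socs2 probe lay above the array median on 5 of 17 arrays and moved by at most 0.13 from 0 h.

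Dusp1, a nuclear phosphatase of p38, JNK and ERK, rose early and then fell below its starting level. WT levels were 10.87 and 11.22 at 0 h, 12.40, 12.32 and 12.29 at 3 h, 11.55 and 11.48 at 6 h, and 10.08 and 10.26 at 24 h. KO levels were 11.49 and 11.47, 12.25 and 11.98, 11.54 and 12.03, and 10.52 and 10.36. In both genotypes the 3 h arrays were all above and the 24 h arrays all below the 0 h arrays.
The 3 h rise was 1.29 ± 0.13 in WT (2.44-fold; limma, adjusted p = 2.09e-06) and 0.64 ± 0.14 in KO (1.55-fold, 0.00251). The difference of these rises, -0.65 ± 0.20, did not pass the test (0.132), and KO levels differed from WT by 0.43 ± 0.14 at 0 h (0.113) and -0.22 ± 0.13 at 3 h (0.408). At 6 h the change was called in WT (0.47, 0.0156) although leaving out WT array 1 of 0 h (0.30, 0.168) or of 6 h (0.44, 0.0856) ended that call, and was 0.31 (0.103) in KO. At 24 h it fell by 0.88 in WT and by 1.04 in KO (adjusted p = 0.000309 and 3.77e-05).

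Dusp6, the cytoplasmic phosphatase that acts on ERK and is itself a widely used readout of ERK activity, rose and fell within 6 h. WT levels were 11.76 and 11.81 at 0 h, 12.57, 12.78 and 12.48 at 3 h, 11.19 and 11.33 at 6 h, and 12.23 and 12.11 at 24 h. KO levels were 11.81 and 11.85, 13.02 and 12.88, 11.65 and 12.39, and 12.07 and 11.89. The WT arrays at 6 h lay below all WT arrays of the other times, while the KO arrays at 6 h lay on both sides of the KO 0 h level.
The rise at 3 h was 0.83 ± 0.16 in WT and 1.12 ± 0.17 in KO (limma, adjusted p = 0.000542 and 0.000124). In WT it was followed by a fall of 1.35 from 3 to 6 h (-1.35 ± 0.16, 5.41e-05) and a rise of 0.91 from 6 to 24 h (0.000739). The WT level at 6 h was 0.52 below that at 0 h (-0.52 ± 0.17, 0.0227), a call that was lost without any 1 of the 4 arrays (adjusted p = 0.051 to 0.13). In KO the 6 h change was 0.19 ± 0.17 (0.426), with the second array 0.75 above the first. KO exceeded WT at 6 h by 0.76 ± 0.17, which missed the threshold (0.0615). The difference was 1.13 without the first KO 6 h array and 0.38 without the second. All 3 Dusp6 probes had the same sign in each of the 6 comparisons with 0 h, from 0.33 to 0.83 at 3 h in WT and from -0.52 to -0.09 at 6 h. With every probe as its own feature, neither dimmer probe was called in WT at 6 h (limma, adjusted p = 0.0598 and 0.475). One of them was called higher in WT at 24 h (0.54, 0.00408), where the brightest was not (0.39, 0.123). Their KO minus WT differences at 6 h were 0.46 and 0.06, neither called.

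Dusp4, a nuclear phosphatase of ERK and JNK, was the measured gene that did not rise above its 0 h level at any time. WT levels were 9.19 and 9.42 at 0 h, 9.03, 9.25 and 9.20 at 3 h, 8.66 and 8.67 at 6 h, and 8.91 and 9.03 at 24 h. KO levels were 9.35 and 9.40, 8.68 and 8.92, 8.71 and 8.88, and 8.75 and 8.76. The WT 3 h arrays overlapped the 0 h arrays, and the KO 3 h arrays lay below them.
In WT the change was -0.15 ± 0.09 at 3 h (limma, adjusted p = 0.211), and it fell by 0.64 at 6 h (9.86e-05) and 0.34 at 24 h (0.0146). Leaving out WT array 2 of 0 h (-0.22, 0.175) or WT array 1 of 24 h (-0.28, 0.116) ended the WT call at 24 h. In KO it fell by 0.58 at 3 h and at 6 h and by 0.62 at 24 h (0.000295, 0.000209 and 0.000124). KO was lower than WT at 3 h (-0.36 ± 0.09, 0.0397), a call lost without the first KO 3 h array (-0.24, 0.181), without WT array 2 or 3 of 3 h (-0.32 and -0.34) and with the mean of all Dusp4 probes (-0.13). The other 3 Dusp4 probes were dimmer, 2 of them above the array median on 5 of 17 arrays. The lowest and highest of the 4 probes were -0.58 and 0.00 at 3 h in KO. In WT they were -0.64 and -0.05 at 6 h, and -0.34 and 0.12 at 24 h. With every probe as its own feature, none of the dimmer probes was called in WT at 6 or 24 h. Of all genes 24.5% fell at 3 h in WT and 21.4% in KO, with 22.1% and 23.0% falling at 6 h. All 8 measured stromal fibroblast markers fell at 3 h in WT and 5 of 8 in KO, with 6 and 5 falling at 6 h. That list lay 0.28 to 0.80 above the mean of all arrays in WT at 0 h, -0.63 to -0.38 at 3 h and 0.64 to 0.66 at 24 h. Its part in the Dusp4 values was not tested.

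**Figure D3:**
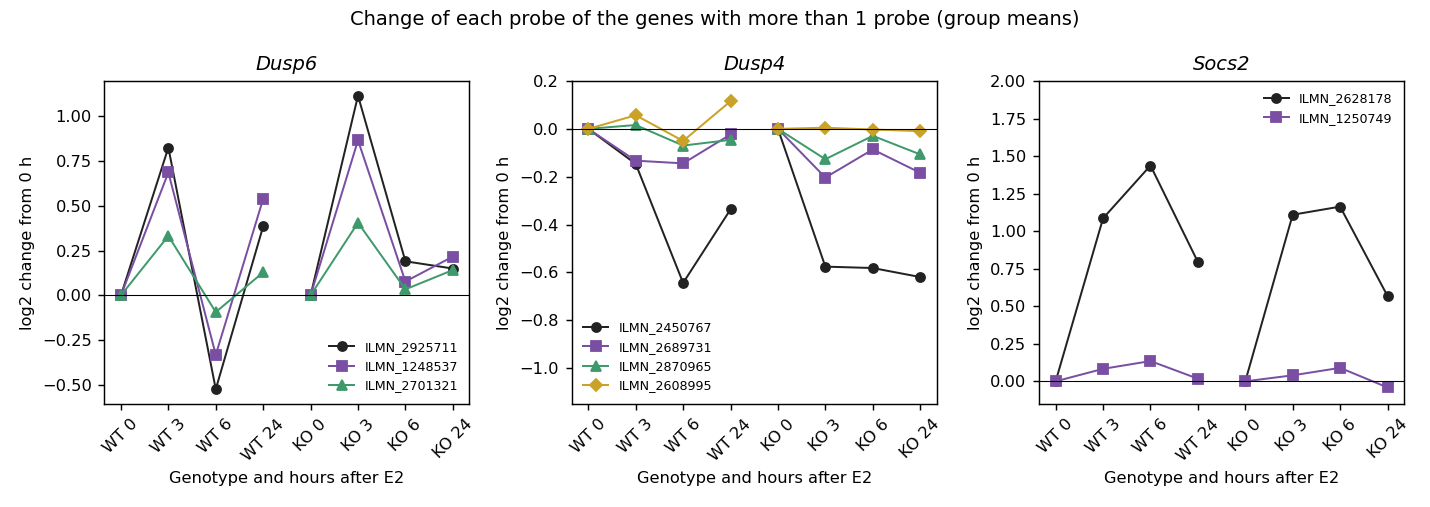
Change in group mean log2 level from 0 h of the same genotype (vertical axis) for each probe of Dusp6, Dusp4 and Socs2, the genes with more than 1 probe, at each genotype and time. The 3 Dusp6 probes share their direction at every time, while the dimmer Dusp4 and Socs2 probes stay close to 0.

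Errfi1, also called Mig6, encodes a protein that binds the EGF receptor kinase and blocks it, and is known in the uterus as a progesterone-responsive gene. Its WT levels were 11.86 and 12.06 at 0 h, 14.48, 14.54 and 14.33 at 3 h, 13.52 and 13.57 at 6 h, and 11.32 and 11.39 at 24 h. KO levels were 12.60 and 12.56, 14.37 and 14.31, 13.70 and 14.05, and 11.24 and 10.96. At 0 h and 6 h both KO arrays lay above both WT arrays, at 3 h the genotypes overlapped, and at 24 h both KO arrays lay below both WT arrays.
The rise at 3 h was 2.49 ± 0.11 in WT (5.60-fold; limma, adjusted p = 1.58e-09) and 1.76 ± 0.12 in KO (3.38-fold, 8.72e-08). At 6 h it was 1.58 ± 0.12 and 1.29 ± 0.12. At 24 h it fell below 0 h by 0.61 in WT and by 1.48 in KO (adjusted p = 0.000873 and 5.54e-07), and the step from 6 to 24 h was -2.19 in WT and -2.77 in KO.

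The Errfi1 time course differed between genotypes. The KO change minus the WT change was -0.73 ± 0.16 at 3 h (limma, adjusted p = 0.0429), -0.29 ± 0.16 at 6 h (0.55) and -0.87 ± 0.16 at 24 h (0.00846), and the joint test gave 0.0171, a call lost without WT array 2 of 24 h (0.0592). These terms share the 0 h arrays, where KO exceeded WT by 0.62 ± 0.12 (0.00895). The levels themselves differed by -0.11 ± 0.11 at 3 h (0.633), 0.33 ± 0.12 at 6 h (0.26) and -0.25 ± 0.12 at 24 h (0.234), and none of these 3 passed the test. Leaving out 1 array in turn, the 24 h term kept its call in 8 of 8 fits (-1.01 to -0.73, adjusted p = 0.0036 to 0.0418), and the 3 h term lost it in 6 of 9 (adjusted p up to 0.133), namely without either KO 0 h array, the second KO 3 h array, WT array 1 of 0 h, or WT array 1 or 2 of 3 h. The 0 h difference lost its call without either KO 0 h array (0.60 and 0.64, adjusted p = 0.0533 and 0.0557) or the first WT 0 h array (0.52, 0.0841). The macrophage list was 0.21 and 1.12 above the mean of all arrays in KO at 0 h, -0.03 and 0.01 in WT at 0 h, and -0.53 to -0.36 in KO at 24 h. Relative to the same mean, the adipocyte list (7 genes) was 1.19 and 1.23 in KO and 0.46 and 0.78 in WT at 0 h. At 24 h it was -0.43 to -0.26 in KO and -0.45 to -0.34 in WT. The part of these lists in the Errfi1 difference was not tested.

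**Figure D4:**
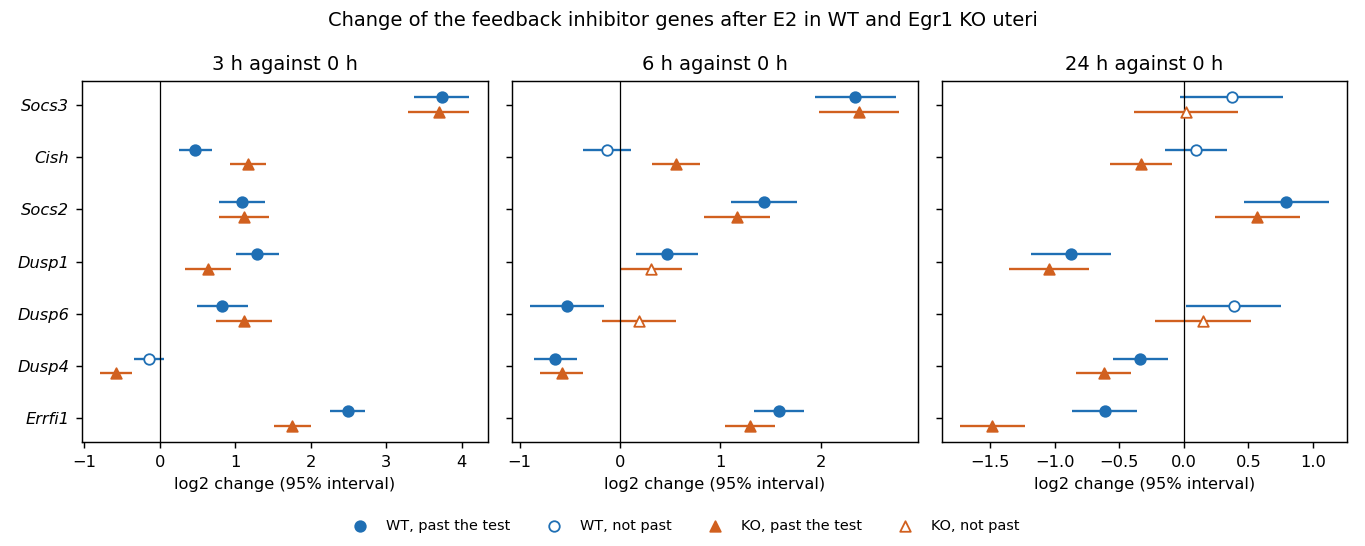
Change in log2 level from 0 h (horizontal axis) of the 7 measured genes at 3, 6 and 24 h after E2 in WT and KO, with 95% intervals from limma. Socs3 and Errfi1 lead at 3 h with 3.74 and 2.49 in WT, and at 24 h Errfi1 and Dusp1 lie below 0 in both genotypes.

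Spry2 carries the Sprouty group here, with the reservation that its probe was dim. When probes below the array median were kept, its change was at most 0.07 in each comparison with 0 h, and no comparison called it (limma, adjusted p of 0.344 or more against 0 h). A dim probe bounds the measured signal and says little about the transcript. Among the relatives outside the 9 genes, Spry4 was lower in KO than in WT at 3 h (-0.36 ± 0.09, adjusted p = 0.0289).

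Set side by side across genotypes, the KO against WT tests called 1 of the 7 genes at 0 h (Errfi1, higher; 4.43% of all genes called), 2 at 3 h (Cish higher and Dusp4 lower; 4.23%), 1 at 6 h (Cish, higher; 0.631%) and 1 at 24 h (Cish, lower; 8.35%). The interaction was called for 2 genes at 3 h (Cish and Errfi1; 1.09%), 0 at 6 h (0.400%) and 1 at 24 h (Errfi1; 7.27%). For the 6 h interaction 2 genes had an unadjusted p under 0.05, Cish (0.00069) and Dusp6 (0.011). In steps, 6 genes fell from 3 to 6 h in WT and 4 in KO. Of all genes 26.0% and 23.3% were called in either direction, and the share that fell is not given here. Of the 4 in KO, Errfi1 (-0.46) lost its call without the first KO 3 h array (-0.43, adjusted p = 0.053) or the first KO 6 h array (-0.28, 0.139). From 6 to 24 h 4 fell and 2 rose in WT, and 5 fell and 0 rose in KO. In each genotype 38.3% of all genes were called in either direction. The WT risers were Dusp6 and Dusp4 (0.31, a call lost without either WT 6 h array or the second WT 24 h array). Against 0 h, 18.9% of all genes were called higher and 19.0% lower at 24 h in WT, and 22.5% and 23.1% in KO. Of 11 epithelial markers 9 were called higher and 0 lower at 24 h in WT, and 5 higher and 3 lower in KO. That list lay 0.62 to 0.63 above the mean of all arrays in WT and 0.30 to 0.39 in KO. Endothelial markers were lower (7 of 9 in WT and 6 of 9 in KO), and all 9 macrophage markers were lower in KO at 24 h against 0 in WT. The part of these lists in the 24 h values was not tested.

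The lists of related genes are read against the share of all genes called at 3 h, which was 22.2% higher and 24.5% lower in WT and 19.0% higher and 21.4% lower in KO. Of 13 other JAK-STAT inhibitors 7 rose and 1 fell at 3 h in WT, and 6 and 1 in KO, with medians of 0.16 and 0.17. Ptpn1 (1.13) and Ptpn2 (0.73), phosphatases of JAK kinases, and Socs6 (0.58) rose in WT, while the STAT inhibitor gene Pias3 fell (-0.76). Of 19 measured ligands, receptors and transducers 7 rose and 3 fell in WT, among them Il11 (1.65), a cytokine of the LIF family, Stat5a (1.59), a factor that drives Cish, and the oncostatin M receptor gene Osmr (1.45), with the kinase gene Tyk2 lower (-1.07). The share of this list called in either direction was close to the 46.7% of all genes. In KO 6 rose and 4 fell, and Il11 was lower than in WT at 3 h (-0.44 ± 0.10, limma adjusted p = 0.0258). Of 13 other STAT target genes 6 rose and 2 fell in WT, led by Cebpb (2.22) and Junb (1.91), and 4 rose and 2 fell in KO.

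On the growth factor side, 2 of 9 measured EGF receptor family genes rose and 2 fell at 3 h in each genotype, close to the shares of all genes (22.2% and 24.5% in WT, 19.0% and 21.4% in KO). In WT the risers were the ligand gene Hbegf (1.17) and Egfr (0.58), and Btc (-0.38) and Erbb2 (-0.35) fell. Egfr, the target of the Errfi1 protein, was lower in KO than in WT at 3 h (-0.41 ± 0.08, limma adjusted p = 0.0138) and at 6 h (-0.59 ± 0.09, 0.0102). Of 12 FGF ligands and receptors 1 rose and 5 fell in WT and 1 and 4 in KO, with Fgf10 (-1.71) and its receptor gene Fgfr2 (-1.29) lowest. The RAS-MAP kinase core split, with 6 of 17 higher and 7 lower in WT, among them the scaffold gene Ksr1 (1.73), the MEK gene Map2k1 (0.98) and the adaptor gene Gab1 (-1.78), and 6 higher and 6 lower in KO.

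Of 9 other dual-specificity phosphatases 5 rose and 1 fell at 3 h in WT (median 0.36) and 4 and 2 in KO (0.07). Dusp5 (1.25), Dusp8 (1.25) and Dusp2 (1.18) rose in WT, as did Dusp7 (0.44), a close relative of Dusp6 that was also higher in KO than in WT at 3 h (0.58 ± 0.09, limma adjusted p = 0.00317; difference of the changes 0.58 ± 0.13, 0.0485). Of 15 other receptor and RAS inhibitors 4 rose and 6 fell in WT and 3 and 5 in KO. The EGF receptor antagonist gene Lrig1 (1.47) and the RAS inhibitor gene Nf1 (1.21) rose in WT, both were lower in KO than in WT at 3 h (-0.64 and -0.25), and the FGF antagonist gene Il17rd fell (1.99-fold lower). ERK target genes had the highest median at 3 h among these lists apart from the 7 genes, 0.82 in WT with 9 of 14 higher and 3 lower, and 0.36 in KO with 8 and 3. Fos (3.49), Egr3 (2.60), Egr1 (2.42) and Ier3 (2.30) rose most in WT. At 3 h KO was lower for Egr3 (-0.94), Egr2 (-0.90) and Ccnd1 (-0.54) among them.

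**Figure D5:**
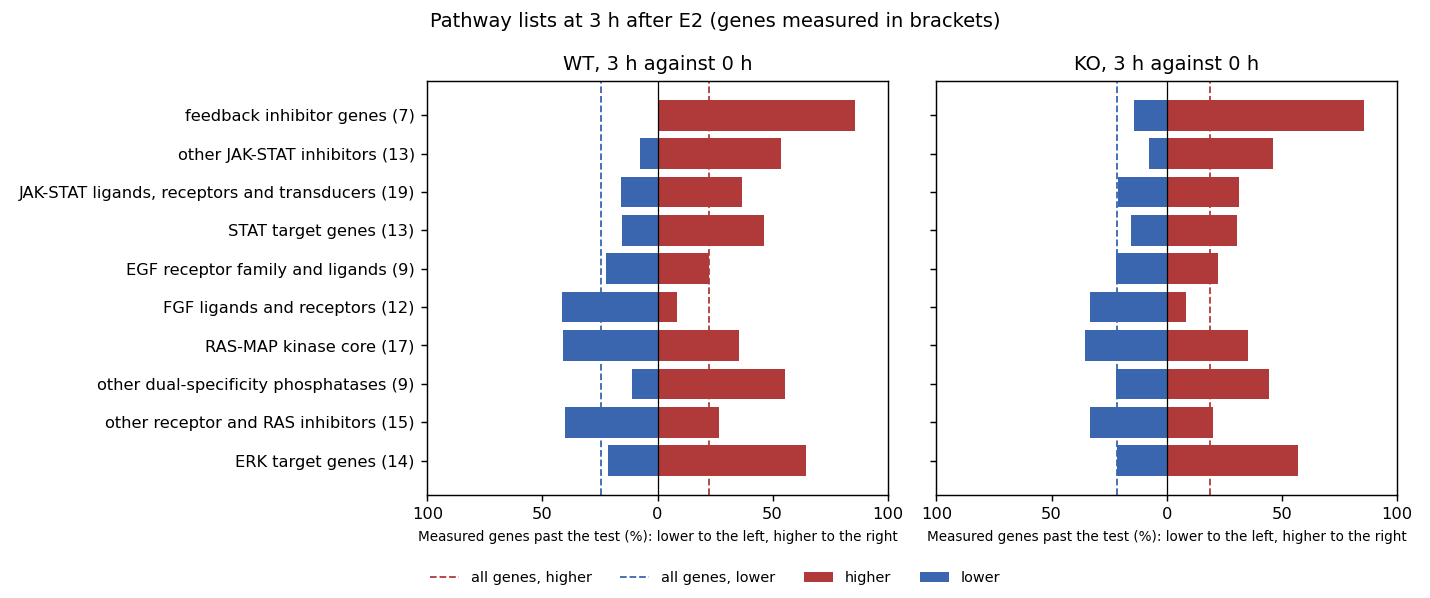
Share of the measured genes of each list (percent, horizontal axis) called lower (left) or higher (right) at 3 h after E2 in WT and in KO, with dashed lines for all genes tested. The 7 inhibitor genes have 6 higher in each genotype, and the FGF list has more lower than higher.

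Among themselves the 7 genes did not follow 1 course. Over the 8 group means, as a description with no test, Errfi1 correlated with Dusp1 at 0.96 and with Socs3 at 0.93 (Pearson), Cish with Socs3 and with Dusp6 at 0.79, and Dusp4 with Socs2 at -0.78. These points share arrays and the strong common time course. Among 2663 other genes spanning at least 1 log2 unit, the closest to Socs3 were Pitpna (0.997), Ppp2r2d (0.997) and 2310022B05Rik (0.996), and to Errfi1 Ccdc137 (0.996), Herpud1 (0.993) and Wsb1 (0.992). Dusp1 was closest to Rbm18 (0.991), Sbds (0.988) and Klf2 (0.986), and Socs2 to Eif1a (0.981), Aldh1a2 (0.981) and Aqp8 (0.979). The likeness was looser for Dusp6, with Llgl2 (0.940), Mapkapk3 (0.931) and Card10 (0.913), for Dusp4, with Rarres2 (0.924), Cd1d1 (0.920) and Aldh6a1 (0.916), and for Cish, with Fabp3 (0.903), Neu1 (0.901) and Rdh12 (0.900), each over 8 group means.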

How the data were processed

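Total uterine RNA was measured on 17 single-colour bead arrays, grouped by the genotype and time in the labels. Per the submitters' processing notes the scanner software was BeadStudio, with no version named. The deposited values are log2 values that had been quantile normalized, as seen from the table: the sorted columns of the 17 arrays were identical, with a range of 7.39 to 15.94. No source used here gives the background correction or log offset, so differences of dim probes may be compressed.

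The platform annotation gave 34885 of 45281 probes 1 gene symbol, 18 several and 10378 none, for 19057 symbols. Only probes with 1 symbol, above the array median on at least 2 arrays, were kept, and the brightest stood for its gene. limma 3.58.1 in R 4.3.3 fitted 8 group means to all 17 arrays, with moderated two-sided tests and Benjamini-Hochberg adjustment over 14737 genes in each comparison (threshold 0.05; 9 residual and 4.56 prior degrees of freedom). The code was tested on simulated data.

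The genes and lists were chosen with earlier results of these data known. All 9 genes are named. Up to 4 called genes with the largest change are named per pathway list and comparison, and the 3 genes most alike to each inhibitor gene, by Pearson correlation. Arrays carry replicate numbers from their descriptions. For KO 3 h the titles carry the letters B and C, where the numbers are 1 and 2. Alternatives covered the probe filter, probe averaging, normalization, array weights, replicate blocks, the threshold, the groups in the fit and leaving out each array. The number of arrays limits the precision.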

Additional observations from a re-analysis of the deposited data

Results flagged for a closer look

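The change after E2 differed between genotypes by its own test for 2 of the 7 genes, which is what marked these values for a closer look. Cish rose more in KO than in WT at 3 h, by 0.70 on the log2 scale (limma, adjusted p = 0.0431), and its joint test over 3 times gave an adjusted p of 0.00229. Errfi1 rose less in KO at 3 h (-0.73, 0.0429) and ended lower relative to 0 h at 24 h (-0.87, 0.00846), with a joint adjusted p of 0.0171, or 0.0592 without WT array 2 of 24 h. Both Errfi1 terms contain its higher KO level at 0 h (0.62). With 2 or 3 arrays in each group, the groups were too small to test single arrays as outliers.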

How the results depend on the processing

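Among the 64 calls of a gene in a comparison, 11 settings other than leaving out an array gave 702 values, of which 673 kept their call, 29 lost it and 0 changed sign. The probe filters, every probe as its own feature, an intensity trend, the threshold and the groups in the fit left the group means as they were. Under these settings no sign could change, so the 0 says nothing about them. Array weights could move only the mean of WT at 3 h. Leaving out 1 array gave 310 values, of which 265 kept their call, 45 lost it and 0 changed sign. One gene that was not called changed sign on being called: Dusp6 at 24 against 6 h in KO ranged from -0.41 to 0.33. Where a setting moved a count of called genes by over 1.5 times, the cause was not tested. KO against WT at 3 h called 1 gene with the mean of all probes, with array weights, at a threshold of 0.01 and with only the groups compared. With array weights the counts were 2 at 6 h, 3 at 24 h and 0 for the 3 h interaction. At 0.01 they were 0 at 6 h, 0 at 24 h, 0 for the 3 h interaction and 1 in the joint test. With only the groups compared, where the spread rests on few arrays, they were 0 at 0 h, 0 at 6 h and 4 at 24 h for KO against WT, 0 for the 3 h and 2 for the 24 h interaction, and 2 for KO 6 against 3 h. With a replicate block by number the interaction called 1 gene at 3 h and 1 at 6 h, and by title letter 0 at 3 h. Deviations from the group means correlated at -0.20 to 0.30 between arrays of the same number, and 12 of 17 correlated best with an array of their own number. In groups of 2 arrays the deviations mirror each other, so this check decides little. The labels tie the number to nothing. Leaving out 1 array, the counts ranged from 0 to 2 (0 h), 1 to 2 (3 h), 0 to 4 (6 h) and 0 to 0 (24 h) for KO against WT, from 0 to 4 (3 h) and 0 to 1 (6 h) for the interaction and from 1 to 5 jointly. They ranged from 5 to 7 for KO 6 h, 3 to 4 for KO 24 h and 3 to 5 for KO 6 against 3 h. Groups of 2 arrays leave the spread to be set mostly by the other groups. Cyclic loess moved no all-gene median by more than 0.02. Dim probes bound what can be said of Spry2 and of the second probes.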

Other observations

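The second KO 6 h array lay above the first for Socs3 (by 0.84), Dusp6 (0.75) and Dusp1 (0.49), each beyond the 95th percentile of the difference between these arrays over all genes (0.38), while Errfi1 differed by 0.36. The adipocyte list (7 genes) lay at -0.50 and 0.33 relative to the mean of all arrays on the same pair. Without the first KO 6 h array, the KO minus WT difference at 6 h was 1.13 for Dusp6, 0.67 for Socs3 and 0.51 for Errfi1. Without the second it was 0.38, -0.17 and 0.15 for the same genes, and 0.53 for Cish. The part of the adipocyte list in the difference between these arrays was not tested.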
